A study of Mus musculus with 2 samples.

Results

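The outer cytosine of a C-CpG is a cytosine whose next base is the cytosine of a CpG, so that the 3 bases read CCG. Its own context is CHG (H is A, C or T), while the inner cytosine is a CpG site. In the deeper of the 2 libraries, replicate 2, 573493 such outer cytosines were found on the 19 autosomes, of 18249464 autosomal CHG sites with 20 to 100 reads and of 27607362 cytosines listed in the series. A site was taken when it and the CpG listed at the next position both had 20 to 100 reads. The comparison group was the 17675963 other CHG sites of the same depth whose next position was in no table of that library, here called other CHG. A cytosine followed by another cytosine and a guanine can only be CCG, and no CHG site had a CHG or CHH site listed at its next position. Other CHG sites are therefore CAG or CTG, together with CCG sites whose inner cytosine was not listed.

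Both libraries were made from dentate gyrus of male mice, 8 to 10 weeks of age, of the strain labelled C57Black6, and both belong to 1 wild-type group with no contrasting treatment or genotype. The dentate gyrus is the part of the hippocampus that receives cortical input and holds granule neurons beside interneurons and glia. The dissection was bilateral and no sort is given, so each level averages over all of these cells, and cell type markers cannot be checked in methylation tables without gene positions. The series' design text calls the libraries biological replicates. Replicate 1 was far shallower and held 1185 outer cytosines by the same rule, beside 34252 other CHG sites.

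In mammals DNA methylation is kept at CpG through cell division by DNMT1, which copies it onto the new strand. Methylation outside CpG has no such copying and is laid down by DNMT3A, in brain chiefly while neurons mature after birth, and mostly at CA dinucleotides. A CCG trinucleotide sets a cytosine outside CpG directly beside a CpG that is usually methylated, so the pair shows whether both carry the mark. Bisulfite reads count methylcytosine and hydroxymethylcytosine together.

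The outer cytosines of C-CpG were nearly unmethylated. In replicate 2, 58926 of 13632623 reads over these sites were methylated, a level of 0.432% (95% Clopper-Pearson interval 0.429% to 0.436%). The inner CpG sites of the same pairs stood at 79.4%, with a median site level of 90%. Other CHG sites stood at 0.795% (0.794% to 0.796%), which is 1.84 times the level of C-CpG. The difference was -0.363 percentage points (95% interval -0.366 to -0.359). Intervals cover counting error only, since the reads carry no molecular identifiers and PCR copies of 1 molecule may be counted more than once. Depth was alike, with a median of 23 reads at outer, inner and other CHG sites, and outer and inner read numbers lay within 2 of each other in 98.5% of pairs.

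Mitochondrial DNA, taken to be little methylated, gave the level of failed conversion in the same setting. At 55 mitochondrial C-CpG pairs the outer cytosine read as methylated in 0.297% of reads (0.282% to 0.312%) in replicate 2. At 237 other mitochondrial CHG sites the level was 0.396% (0.387% to 0.404%). The background in this library thus also differed between the 2 kinds of site, by 0.099 points. In replicate 1 it was 0.446% at C-CpG and 0.423% at other CHG, the other way round. Above their own backgrounds, C-CpG outer cytosines stood 0.135 points and other CHG sites 0.399 points higher. The excess at C-CpG was 33.8% of that at other CHG in replicate 2. In replicate 1 the excesses were 0.514 and 0.450 points, so that C-CpG was at 114% of other CHG there. These excesses hold only as far as conversion failed equally often in both genomes.

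By autosome the levels of C-CpG were close together. The mean over 19 autosomes was 0.432% ± 0.0092 (SD over autosomes), and every autosome lay above the interval of the mitochondrial C-CpG sites. Chromosome 7 (0.443%) and chromosome 4 (0.443%) were highest. Chromosome 12 (0.407%) and chromosome 2 (0.423%) were lowest. No autosome differed from its neighbour in this order beyond the counting intervals. Other CHG sites had a mean of 0.795% ± 0.021 (SD over autosomes) and ranged from 0.753% on chromosome 7 to 0.835% on chromosome 9.

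The outer cytosines were below other CHG on all 19 autosomes, by 0.310 points on chromosome 7 up to 0.407 points on chromosome 9. By two-sided Fisher's exact tests of the reads within each autosome, with Benjamini-Hochberg adjustment over 19, all 19 differed, and the largest adjusted p was 2.86e-150. These tests compare reads of 1 library and not conditions. The order of autosomes was not shared between the kinds of site, with a Spearman's rho of -0.021 across the 19 autosomes, given as a description because both come from the same library.

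**Figure D1:**
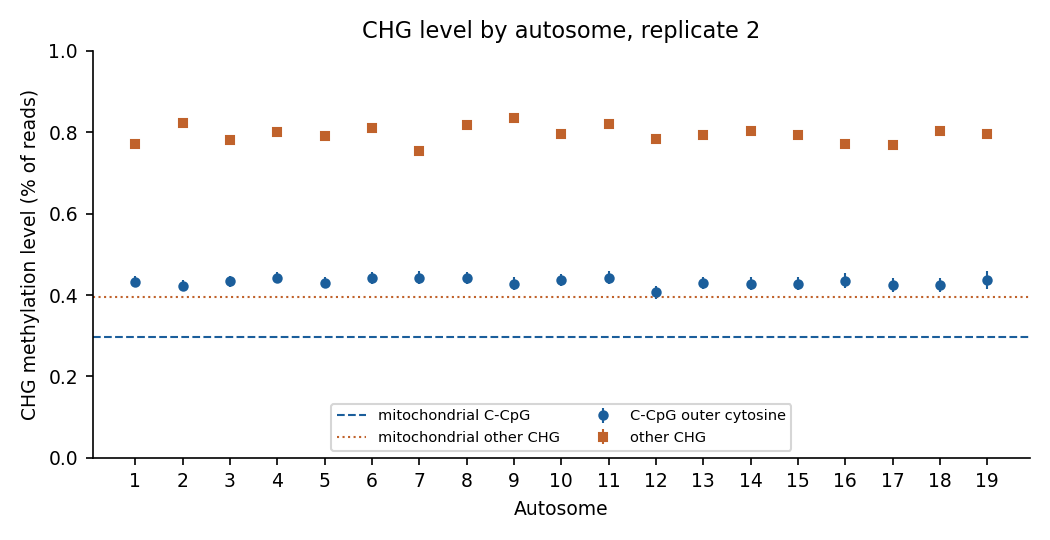
CHG methylation level (percent of reads) on each of 19 autosomes in replicate 2, for C-CpG outer cytosines (circles) and other CHG sites (squares), with 95% Clopper-Pearson intervals, many smaller than the points. Dashed and dotted lines are the mitochondrial levels of C-CpG (0.297%) and other CHG (0.396%). All C-CpG points lie between 0.407% and 0.443%, and all other CHG points between 0.753% and 0.835%.

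The level of the outer cytosine was then set against that of its own CpG. It was higher in each class of CpG level than in the one before, and stayed below 0.5% in all of them. At the 12046 pairs whose CpG had no methylated read, the outer level was 0.292% (0.273% to 0.313%), and this interval overlapped that of the mitochondrial C-CpG sites. It was 0.328% where the CpG was above 0 and under 20%, 0.370% at 20% to under 40%, and 0.412% at 40% to under 60%. It was 0.429% at 60% to under 80%, 0.448% at 80% to under 100%, and 0.449% (0.442% to 0.457%) at the 125541 pairs with a fully methylated CpG. Neighbouring classes from 40% up were not all separable by their intervals, and the last 2 were alike.

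Pairs with a CpG of 80% or more had an outer level of 0.449%, against 0.315% for pairs under 20%, a difference of 0.133 points. The difference had this direction on all 19 autosomes, from 0.069 points on chromosome 11 to 0.188 points on chromosome 18. All 19 passed Fisher's exact test with Benjamini-Hochberg adjustment over 19, with adjusted p from 2.72e-07 to 0.038. With a limit of 50 reads 18 of 19 passed, and with at least 30 reads none did, where 1835 pairs had a CpG under 20% and 15 of 19 autosomes kept the direction. Outer and inner cytosine lie in the same reads, so reads that failed conversion raise both levels, and the part of this in the rise was not tested.

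CpG crowding moved with the CpG class: pairs at 0% had on average 2.44 other listed CpG sites within 100 bases, and pairs at 80% to under 100% had 0.955. Within each grade of crowding the rise was present. With no other CpG listed within 100 bases the outer level was 0.307% for a CpG under 20% and 0.453% for one of 80% or more. With 1 to 2 others it was 0.330% and 0.442%. With 3 or more it was 0.299% and 0.457%. In each case the intervals of the 2 classes were apart. Over all pairs, the outer level was 0.437% with no other CpG nearby and 0.422% with 3 or more. The paired CpG level also differed between these grades (81.3% and 72.7%), so this is not the difference by crowding alone.

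Other CHG sites with a CpG 3 to 30 bases on the 3′ side were sorted by the level of that CpG in the same way. Their level was 0.409% where that CpG was at 0% and 0.961% where it was at 100%, or 2.35 times as much, against 1.54 times for C-CpG. From a CpG under 20% to one of 80% or more they went from 0.487% to 0.930%, a difference of 0.442 points. In a logistic model with an interaction of CpG class and kind of site, the odds rose less at C-CpG on all 19 autosomes, and 12 of 19 passed at an adjusted 0.05 (Benjamini-Hochberg over 19, adjusted p from 1.21e-08 to 0.42). These folds and odds include reads that failed conversion. With the mitochondrial level of each kind removed, the step from under 20% to 80% or more was from 0.018 points (0.0055 to 0.031) to 0.151 points at C-CpG, and from 0.092 to 0.534 points at other CHG. As folds these are 8.40 and 5.83, so the order of the folds turned, although the step in points stayed the smaller at C-CpG. The removal was added after the data were seen, and the lower C-CpG value lies close to 0. Across single sites the outer and inner levels of C-CpG were almost unrelated (Spearman's rho 0.015, Pearson's r 0.018, 573493 pairs in shared reads), and 93.1% of outer cytosines had no methylated read. For other CHG and a CpG 3 to 30 bases on, the values were also near 0 (rho 0.029, r 0.039, 2283591 sites).

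**Figure D2:**
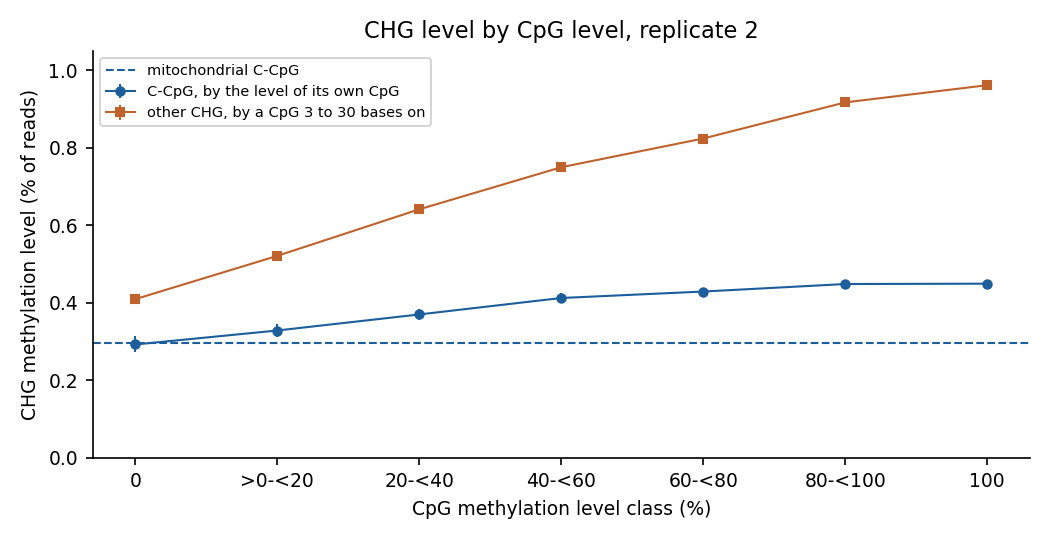
CHG methylation level (percent of reads) in replicate 2 by class of CpG methylation level, with 95% Clopper-Pearson intervals. Circles are C-CpG outer cytosines by the level of their own CpG, from 0.292% to 0.449%. Squares are other CHG sites by the level of a CpG 3 to 30 bases on, from 0.409% to 0.961%. The dashed line is the mitochondrial C-CpG level.

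Position relative to the CpG was examined for all autosomal CHG sites, each placed by the distance to its nearest listed CpG, which is positive where the CpG lies on the 3′ side. The outer cytosine of C-CpG, at distance 1, was the lowest point of the profile. The levels at the 57 other distances up to 30 bases had a median of 0.822%, and the interval of each lay wholly above that at distance 1. The next lowest was 0.549% at distance -3, where the CpG starts 3 bases on the 5′ side. The highest was 1.13% at distance 4. Sites 3 bases before a CpG stood at 0.781%, near the 0.782% of the 13442531 sites with no listed CpG within 30 bases. By definition all sites at distance 1 are CCG, while sites at the other distances are CAG or CTG, or CCG with an unlisted inner cytosine. Position and trinucleotide thus cannot be told apart at distance 1. Base composition at the other distances was not analysed here.

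**Figure D3:**
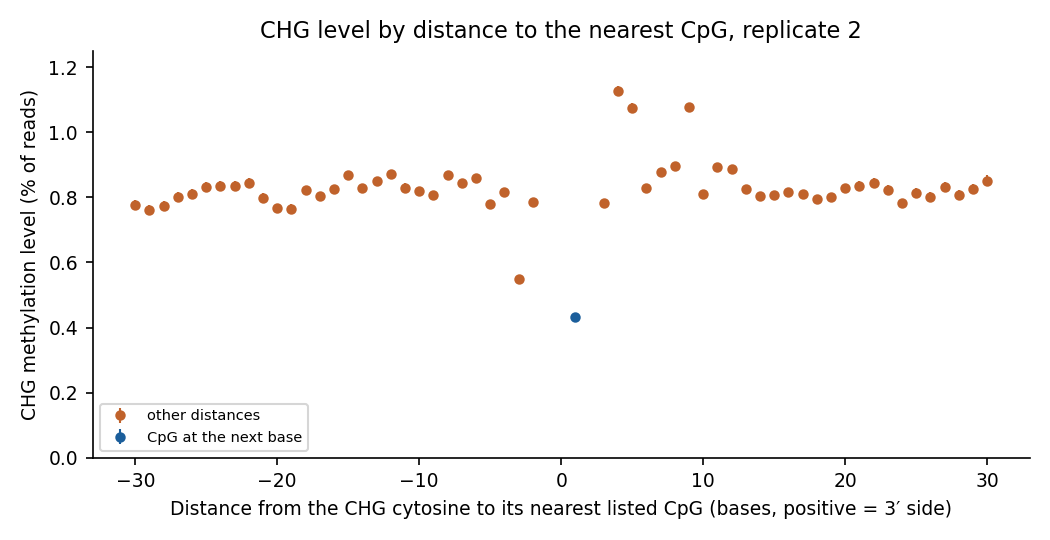
CHG methylation level (percent of reads, with 95% Clopper-Pearson intervals) in replicate 2 against the distance in bases from the CHG cytosine to its nearest listed CpG. The point for a CpG at the next base lies at 0.432%, below all 57 other distances, of which the lowest is 0.549% and the highest 1.13%.

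In longer runs of cytosine, the cytosine beside the CpG was not the lowest. At 10025 pairs a CHH site of 30 to 100 reads was listed 1 base before the outer cytosine (C-C-CpG). There the first cytosine stood at 0.339% (0.320% to 0.359%), the outer CHG at 0.430% (0.409% to 0.453%) and the CpG at 79.0%. At 2063 runs with 1 more listed CHH, the levels from the first cytosine on were 0.385%, 0.279%, 0.433% and 79.0%. For comparison, all 6165525 autosomal CHH sites of 30 to 100 reads stood at 0.889%. The cytosines of these runs that are followed by another cytosine were thus all far below the general CHH level. In replicate 2 the mitochondrial level was 0.366% at CHH (0.364% to 0.369%) and 0.297% at C-CpG. The CHH levels in the runs were thus near or below their background, which was not removed in this ranking.

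Regions differ in CHG methylation, and C-CpG was compared across them. Windows of 100 kb with at least 100 other CHG sites, 23798 in number, were split into quintiles by the level of those other CHG sites. By this choice the other CHG level ran from 0.483% in the lowest to 1.21% in the highest quintile, or 2.51 times. The C-CpG level, which did not enter the choice, was 0.427% (0.418% to 0.435%) in the lowest, 0.418% in the middle and 0.451% (0.444% to 0.458%) in the highest, or 1.06 times. The paired CpG level was alike, from 79.2% to 79.7% over the quintiles. For pairs with a CpG of 80% or more, the outer level was 0.446% in the lowest and 0.474% in the highest quintile.

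The C-CpG level was higher in the highest than in the lowest quintile on 13 of 19 autosomes. By Fisher's exact test within autosomes 3 of 19 passed at an adjusted 0.05, and 5 at an unadjusted 0.05. The difference between quintiles for C-CpG ran from -0.054 to 0.127 points over autosomes. For other CHG, whose levels set the quintiles, it ran from 0.656 to 0.819 points. A logistic model with an interaction of quintile and kind of site gave the smaller rise at C-CpG on all 19 autosomes. Its adjusted p ran from 3.05e-88 to 7.04e-22 (Benjamini-Hochberg over 19). This test cannot decide whether C-CpG varies less by region, because the same other CHG reads chose the quintiles. The rise of other CHG is set at least in part by that choice, counting error included. No conclusion is drawn from the interaction. The C-CpG levels did not enter the choice, but C-CpG reads overlap those of other CHG sites. Reads that failed conversion can raise both, and the part of this was not tested. With the mitochondrial level of each kind removed, C-CpG went from 0.130 to 0.154 points and other CHG from 0.087 to 0.816 points.

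**Figure D4:**
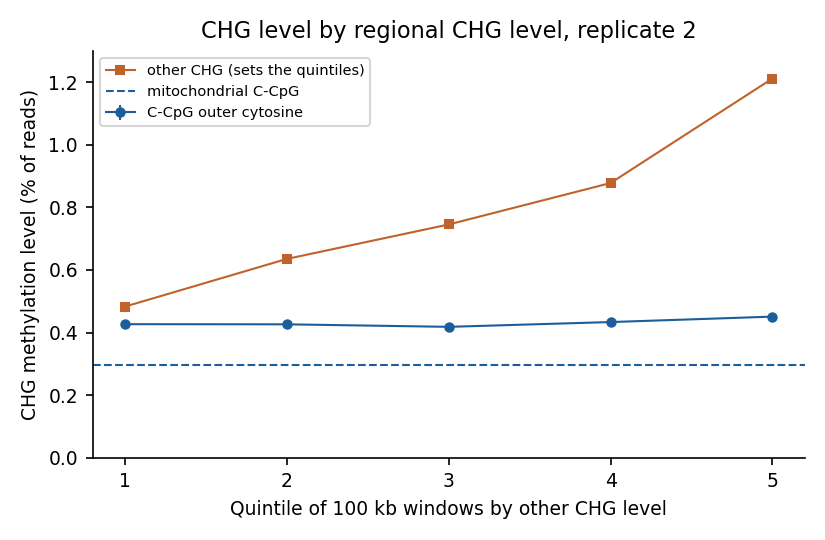
CHG methylation level (percent of reads) in replicate 2 by quintile of 100 kb windows, ordered by the level of other CHG sites. Squares are those sites, from 0.483% to 1.21%. Circles are C-CpG outer cytosines with 95% Clopper-Pearson intervals, from 0.418% to 0.451%, and the dashed line is the mitochondrial C-CpG level.

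In windows of 10 Mb with at least 500 outer cytosines, 249 in number, the median C-CpG level was 0.431%, with an SD of 0.044 points between windows, against a median SD of 0.028 points from counting alone. It was below the other CHG level in 248 windows. The lowest windows (mm9) were chr5:150000001-160000000 (0.292%, 0.218% to 0.384%), chr12:80000001-90000000 (0.321%) and chr13:40000001-50000000 (0.334%). In the last of these, other CHG stood at 0.970%, above its general level, while C-CpG was at the low end. The highest windows were chr1:80000001-90000000 (0.591%, 0.530% to 0.656%), chr4:110000001-120000000 (0.576%, 0.509% to 0.650%) and chr7:1-10000000 (0.553%, 0.441% to 0.684%). The chromosome 7 window was the 1 window where C-CpG exceeded other CHG (0.482%). There 1 site gave 15 of its 84 methylated reads. Paired CpG levels in the 6 windows lay between 76.6% and 79.5%.

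Single methylated sites were called by a one-sided exact binomial test against the mitochondrial CpH rate of the library (CpH is CHG and CHH together, 0.368% in replicate 2), with Benjamini-Hochberg adjustment at 0.01 over all nuclear CHG sites. The share called was 0.457% of C-CpG outer cytosines (2618 of 573493), against 1.46% of all 18322412 nuclear CHG sites tested and 1.50% of other CHG sites. Other CHG sites were thus called 3.28 times as often in replicate 2. The order was the reverse in replicate 1, where 2.11% of C-CpG outer cytosines and 1.45% of other CHG sites were called, against 1.73% of all nuclear CHG sites there. It was also the reverse in replicate 2 at sites that met the rule in both libraries (2.49% and 1.45%). The share of C-CpG sites called was 0.404% to 0.521% over the autosomes. A call needed at least 3 methylated reads, and called C-CpG sites had a median level of 16%, against 16.7% at called other CHG sites. They held 18.5% of the methylated reads of all C-CpG outer cytosines, while called other CHG sites held 35.5% of theirs.

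In replicate 2 the scarcity of C-CpG grew with the level of the site. Levels of 5% to under 10% were found at 2.25% of C-CpG outer cytosines and 3.67% of other CHG sites. Levels of 10% to under 20% were found at 0.632% and 1.59%, and those of 20% to under 30% at 0.086% and 0.338%. Levels of 30% to under 50% were found at 79 outer cytosines (0.014%) and at 0.106% of other CHG sites. At 50% or more there were 4 outer cytosines (0.000697%), against 2544 other CHG sites (0.0144%). The share of other CHG sites was thus 1.63 times that of C-CpG at 5% to under 10%, and 20.6 times at 50% or more. The last ratio rests on 4 outer cytosines. Replicate 1 also had 4 outer cytosines at 50% or more, but among only 1185, so this scarcity was not seen there. Site levels include reads that failed conversion.

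**Figure D5:**
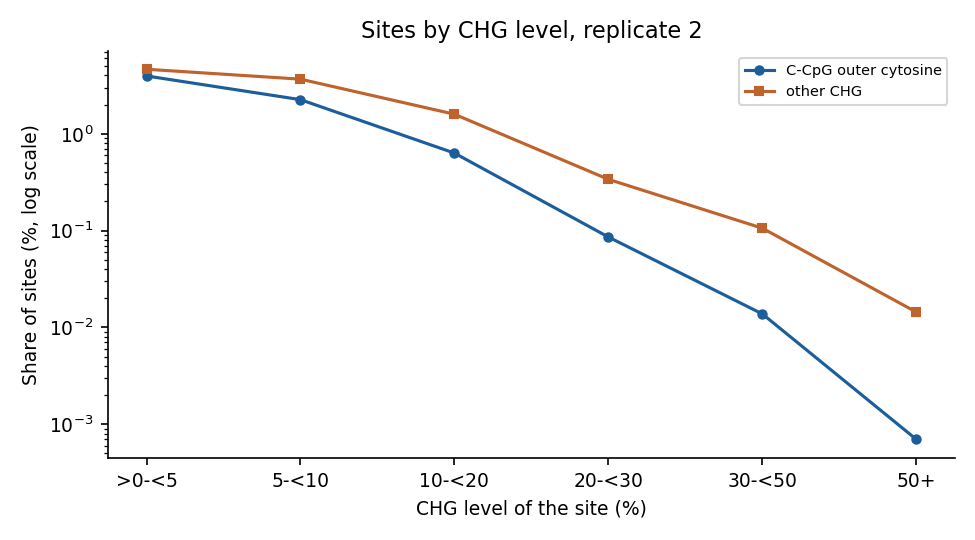
Share of sites (percent, log scale) by CHG level of the site in replicate 2, for C-CpG outer cytosines (circles) and other CHG sites (squares), with sites at 0 left out. The circles lie below the squares in every class and fall away from them, from 2.25% against 3.67% at 5% to under 10%, to 0.086% against 0.338% at 20% to under 30%.

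The paired CpG of called sites was methylated much as in all pairs. Its median level was 90.5%, against 90% over all pairs, and 1879 of 2618 called sites (71.8%) had a CpG of 80% or more, against 68.3% of all pairs. Of the pairs with such a CpG, 0.479% were called. Of the 31973 pairs with a CpG under 20%, 98 (0.307%) were called. The outer cytosine exceeded its CpG in level at 701 pairs, but at only 12 pairs whose CpG was at 20% or more. Of the 2618 called sites, 15 had another called C-CpG within 100 bases. The number expected from the spacing of all pairs was not computed.

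The most methylated outer cytosines were single positions (mm9), whose genes were not looked up because no annotation of this build was used. The highest was position 40800115 of chromosome 1, methylated in 22 of 31 reads (71.0%, 52.0% to 85.8%), with its CpG at 68.4%. Next came position 52353482 of chromosome 15, with 15 of 23 reads (65.2%) and a CpG at 41.7%, and 10 bases from it lay position 52353472, with 10 of 22 reads (45.5%) and a CpG at 60%. Position 144902378 of chromosome 7 had 13 of 25 reads (52%) and a CpG at 48%. At these 4 positions both cytosines of the pair were partly methylated.

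Position 103601123 of chromosome 2 differed from them, with 10 of 20 reads methylated (50%) beside a CpG with 0 of 20, which allows a share of up to 15%. The 21 other CHG sites within 1000 bases of it had no methylated read. Position 35767802 of chromosome 4 had 11 of 24 reads (45.8%) and a CpG at 32%. On the same chromosome, position 146765494 had 22 of 53 reads (41.5%) and a CpG at 86.7%, and position 89732653 had 9 of 22 reads (40.9%) and a CpG at 17.4%. On chromosome 14, position 37957227 had 32 of 70 reads (45.7%) and a CpG at 52.3%, and position 54148313 had 10 of 23 reads (43.5%) and a CpG at 48.1%. Each of these 10 sites passed the binomial test over all nuclear CHG sites, with Benjamini-Hochberg adjusted p of 1.34e-13 or less. At some of them outer and inner read numbers differed by more than 2, unlike most pairs. The widest gap was at position 146765494 of chromosome 4, with 53 outer and 30 CpG reads. Position 40800115 of chromosome 1 had 31 and 38. The cause of these gaps was not tested.

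Of these 10 sites, 3 met the rule in replicate 1 as well. There position 37957227 of chromosome 14 was methylated in 20 of 36 reads, position 54148313 of chromosome 14 in 4 of 23, and position 89732653 of chromosome 4 in 7 of 20. All 3 were thus partly methylated in both libraries. More widely, 12 sites called in replicate 2 met the rule in replicate 1, and 11 of them were called there too, against a background of 2.11% of C-CpG sites, 1.45% of other CHG sites and 1.73% of all nuclear CHG sites called in replicate 1. Their pooled level in replicate 1 was 32.0% (26.9% to 37.4%). The 470 sites not called in replicate 2 stood at 0.625% in replicate 1. For other CHG, 64 of 237 sites called in replicate 2 were also called in replicate 1.

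Some of these 12 sites lie close enough to share reads. On chromosome 6, positions 121354759, 121354764 and 121354775 were methylated in 15.4%, 18.2% and 27.6% of reads in replicate 2 and in 44%, 61.5% and 40% in replicate 1. The 1 site not called in replicate 1 was position 68924315 of chromosome 12, with 6 of 84 reads in replicate 2 and 0 of 26 in replicate 1, which allows up to 11.5%. These 12 sites are named or counted here only because they were called. Their paired CpG sites were mostly partly methylated, with a median of 26.4% in replicate 2 and 46.8% in replicate 1.

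In replicate 1 the low level of C-CpG was not seen. Its 1185 outer cytosines stood at 0.961% (0.866% to 1.06%) and its other CHG sites at 0.874% (0.855% to 0.892%). The difference was 0.087 points (-0.0071 to 0.190), and Fisher's exact test on the reads gave p = 0.072. Over both libraries the C-CpG level averaged 0.696% ± 0.374 (SD, n = 2) and the other CHG level 0.834% ± 0.056 (SD, n = 2). C-CpG minus other CHG averaged -0.138 ± 0.318 points (SD, n = 2), so the spread between libraries exceeded the mean difference. An exact permutation test with 2 libraries cannot give a p below 0.5.

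A few sites carried much of the level in replicate 1: the 20 outer cytosines with most methylated reads held 48.7% of them, and the 4 at 50% or more held 15.5%. Without those 4, C-CpG stood at 0.814% and other CHG sites under 50% at 0.815%. In replicate 1 the outer level did not rise steadily from class to class of the paired CpG. Pooled classes of high and low CpG, as compared in the other library, were not tested against each other in replicate 1. There the outer level was 1.52% (0.695% to 2.86%) at the 20 pairs with a CpG at 0, 0.433% above 0 and under 20%, and 2.61% at 20% to under 40%. It was highest at the 83 pairs of 40% to under 60% (4.66%), and then 0.774%, 0.617% and 0.536% (0.359% to 0.769%) up to a CpG at 100%.

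The sites themselves also differed between the libraries. At the 482 C-CpG and 16373 other CHG sites that met the rule in both, C-CpG was the higher kind in each library. The levels were 1.44% and 0.970% in replicate 1 (Fisher's exact test, p = 1.11e-06) and 0.915% and 0.722% in replicate 2 (Fisher's exact test, p = 0.00056). These tests treat reads as independent. In replicate 1 the 12 C-CpG sites called in replicate 2 held 101 of the 175 methylated reads. Among sites not called in the other library, C-CpG was the lower kind by value, but the intervals of the 2 kinds overlapped in each library. There C-CpG stood at 0.625% (0.491% to 0.785%) and other CHG at 0.765% (0.738% to 0.793%) in replicate 1. In replicate 2 these sites stood at 0.478% (0.396% to 0.572%) and 0.581% (0.564% to 0.598%). These differences were not tested. In replicate 2 the 482 C-CpG sites had a median of 51 reads, against 23 at all C-CpG sites. By depth in replicate 2, C-CpG stood at 0.429% at 20 to 24 reads, 0.435% at 25 to 29 and 0.431% at 30 to 39. It stood at 0.508% at 40 to 59 reads (2822 sites) and 0.655% at 60 to 100 reads (560 sites). Other CHG stood at 0.724% and 0.531% in the last 2 classes. C-CpG thus stayed the lower kind at 40 to 59 reads. Within the limit of 100 reads, the order was turned only at 60 to 100 reads. It was also turned outside the rule, over 100 reads (1.96% at C-CpG and 0.594% at other CHG). The part of depth in the difference between libraries was not tested.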

How the data were processed

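Whole-genome bisulfite libraries of 2 dentate gyrus samples were used. Per the labels' protocols, 3 µg of DNA with 0.5% unmethylated lambda DNA was sheared to about 300 bp. Per the submitters' processing notes, Bismark 0.7.5 and build mm9 were used. Trimming and duplicate removal were not given in the sources used here. Headerless tables, 6 in all, were deposited by the authors with 3 counts a cytosine: its methylated reads, its unmethylated reads and their sum. The deposited percent is methylated over total reads. Tables start at 20 reads (CHH of replicate 2 at 30) and hold 1 strand class, named OT.

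Levels are methylated reads over reads, from the counts. Tools were Python 3.11.15, NumPy 2.4.6, SciPy 1.17.1, pandas 2.3.3 and statsmodels 0.14.6. A 95% Clopper-Pearson interval goes with each level and a Newcombe interval with differences. CCG sites whose inner cytosine fell under 20 reads count as other CHG: 3.09% of CHG sites of 20 reads and 3.37% of those of 21 preceded a listed CpG. The 639 autosomal pairs over 100 reads were left out. The tests were checked on simulated reads: with the depths of 200000 sites of replicate 2, binomial calls recovered 42.5% of sites at 10%, 86.7% at 20% and 99.8% at 40%. The planted sites at these levels numbered 3943, 4090 and 4045. Together they were a larger share than the 1.46% of nuclear CHG sites called in the data. Benjamini-Hochberg adjustment is stricter at a smaller share, so recovery in the data may be lower. Sites named are the 10 highest called, with the 3 highest and 3 lowest 10 Mb windows and the 2 highest and 2 lowest autosomes. The members and the measures were chosen with earlier results of these data known. The logistic interactions, the comparison of calls across libraries and the sites common to both were added after the data were seen. No mm9 sequence was used, so no sequence is printed.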

Additional observations from a re-analysis of the deposited data

Results flagged for a closer look

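Outside the rule, the interval of the C-CpG outer level lay wholly above that of the mitochondrial C-CpG sites of the same library in 4 cases. In replicate 2 the 1309 on the X chromosome stood at 0.577% (0.497% to 0.665%), above the autosomal 0.432%, whereas other CHG on the X stood at 0.659%, below its autosomal 0.795%. In replicate 1 the 38 on the X stood at 0.525% (0.193% to 1.14%), below the autosomal 0.961% of that library. On the X in replicate 2, 11 of the 1309 sites were called (0.840%). The shares called were 0.457% of autosomal C-CpG sites and 1.46% of all nuclear CHG sites. The 11 sites gave 74 of the 187 methylated reads. The 49 on the Y chromosome in replicate 2 stood at 0.759% (0.425% to 1.25%), from 15 methylated reads. At autosomal pairs with over 100 reads at either cytosine, the outer level was 1.96% at 639 pairs in replicate 2 and 2.60% at 180 pairs in replicate 1. Other CHG sites over 100 reads stood at 0.594% and 0.850%. The site mean at those pairs was 0.735% in replicate 2 and 1.28% in replicate 1, so few very deep sites weigh on the read-weighted level. What causes these values was not tested.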

How the results depend on the processing

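The C-CpG level of 0.432% in replicate 2 was 0.439% with at least 30 reads and 0.484% with no upper limit. It was 0.065% after subtracting the mitochondrial CpH rate, 0.135% after subtracting the mitochondrial C-CpG level, and 0.696% as the mean of both libraries. Leaving out a library gave 0.432% to 0.961%. Leaving out each autosome gave 0.4316% to 0.4335%. C-CpG minus other CHG (-0.363 points) kept its direction, from -0.427 to -0.264 points, in the alternatives run on all sites, and with no upper limit it was lower on 18 of 19 autosomes. It reversed to 0.193 points at the sites meeting the rule in both libraries. In replicate 1 the difference reversed to -0.0012 points without sites at 50% or more, and passed the test at 1.39 points with no upper limit and at 0.113 points without sites within 10 kb of a position over 1000 reads (Fisher's exact test, p = 0.021). The rise with the paired CpG (0.133 points) was 0.106 points at 30 reads, where 0 of 19 autosomes passed, and 0.134 points at up to 50 reads, where 18 passed. Calls (2618, 0.457% of C-CpG against 1.46% of all CHG) were 1030 against a background of 1% (0.180% against 0.674%). With at least 30 reads they were 307 of 43283 pairs, a higher share (0.709% against 1.93%). The highest minus the lowest regional quintile (0.024 points) was 0.011 points in 1 Mb windows and 0.055 points with at least 30 reads. Where no reason is given, the cause was not tested. No paired analysis was possible because the labels hold 1 group, so no groups share replicate numbers. The difference within each library is given in the results.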
